A study of Mus musculus with 9 samples.

Results

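Imprinted genes are expressed mainly or only from the copy inherited from one parent. Here 32 imprinted genes of the mouse were followed in mouse embryonic fibroblasts (MEFs). They were chosen by name, as well-studied members of the main imprinted domains, and looked up in the table of read counts by Ensembl identifier, with names from GENCODE M21 (GRCm38). The table lists 43629 genes. It holds 31 of the 32 imprinted genes, and *Peg13* was not analysed here. Of the 31, 26 passed the filter on low counts and entered the test with 14567 genes in all. The 26 were the expressed members, so counts over them do not speak for the other members.

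RNAseq was done on 9 MEF cultures, one per embryo, 4 from wild-type (WT) and 5 from Dp1Tyb littermates at E14.5, the age of the embryos in days, all of the strain C57BL/6J.129P2. The mice had been backcrossed to C57BL/6JNimr. Dp1Tyb, Dp(16Lipi-Zbtb21)1TybEmcf in the labels, carries an extra copy of the part of Mmu16 from *Lipi* to *Zbtb21*. None of the 32 imprinted genes lies in the duplication (0 of 32). They are spread over 9 chromosomes. The embryos were decapitated and eviscerated before the cells were put in culture, so head and inner organs did not contribute, and RNA was taken after 2 passages. The sample descriptions name the cultures MEF1 or MEF2 without saying what this stands for. WT replicate 1 and Dp1Tyb replicate 1 are MEF1 cultures, and the remaining 7, from 3 WT and 4 Dp1Tyb embryos, are MEF2 cultures.

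Most imprinted genes lie in clusters, each under an imprinting control region that carries DNA methylation on one parental copy. Many clusters hold a long non-coding RNA beside protein-coding genes that are expressed from the other copy. Imprinted genes are known for their part in the growth of the embryo and placenta, and many fall after birth. Among paternally expressed genes, *Igf2* codes for a growth factor, and among maternally expressed genes, *Igf2r*, *Cdkn1c* and *Grb10* restrain growth. Reads were counted per gene and not per allele, so the values below are the sum over both parental copies and say nothing about which copy was expressed.

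Total counts ran from 25571442 to 30009361 in WT and from 24804539 to 26782380 in Dp1Tyb cultures. WT replicate 1 and Dp1Tyb replicate 2 stood apart from the rest across all genes. WT replicate 1 had the highest value of the 9 cultures for 24.9% and the lowest for 23.2% of the tested genes, and Dp1Tyb replicate 2 for 27.1% and 27.0%. Levels in RPKM are reads scaled to the exon length of the gene and to the library size of the culture after TMM, a scaling between libraries. The summed level of 8 fibroblast markers was 3327 RPKM in Dp1Tyb replicate 2. It was 5619 RPKM in WT replicate 1 and 4263 to 5964 in the other 7 cultures. All 8 fibroblast markers passed the filter on low counts. The collagen genes *Col1a1*, *Col1a2* and *Col3a1*, with *Pdgfra*, *Dcn* and *Lum*, were lowest in Dp1Tyb replicate 2. *Vim* went the other way, with 129616 normalised counts in Dp1Tyb replicate 2 and 63053 in WT replicate 1, the highest and lowest of the 9 cultures, and *Thy1* was lowest in WT replicate 1 (11964). For 8 skeletal muscle markers, of which 4 passed the filter, the sum was 154 RPKM in Dp1Tyb replicate 2, 4.54 in WT replicate 1 and 10.1 to 42.6 in the others. That sum came mainly from *Acta1*, which codes for an actin of skeletal muscle, while the muscle-determining genes *Myf5* and *Myod1* had 0 and at most 2.2 normalised counts in any culture. All 4 muscle markers that passed had a log2 fold change above 0. *Myh3* was low and did not overlap between the genotypes, with 1.0 to 2.0 normalised counts in WT and 3.8 to 30.2 in Dp1Tyb cultures. Its log2 fold change was 3.30 and that of *Des* 1.35, with edgeR adjusted p-values of 0.252 and 0.547. The sum of 4 neuron markers, of which 2 passed the filter, was 43.4 RPKM in Dp1Tyb replicate 2, 11.8 in WT replicate 1 and 20.1 to 35.2 in the others, and that of 6 epithelial markers, of which 3 passed, was 6.69, 11.9 and 5.41 to 7.63. For 6 macrophage markers, all of which passed, it was 11.3 RPKM in Dp1Tyb replicate 2, 67.9 in WT replicate 1 and 14.4 to 194 in the others. The sum of 5 endothelial markers, of which 3 passed, was 2.6 RPKM in Dp1Tyb replicate 2, 1.68 in WT replicate 1 and 0.823 to 1.97 in the others. For 5 cartilage markers, of which 4 passed, it was 7.88, 6.00 and 4.60 to 6.69 RPKM. The Schwann cell and neural crest markers *Sox10*, *Foxd3* and *Erbb3* did not overlap between the genotypes, with 197 to 443, 68.9 to 144 and 243 to 536 normalised counts in WT and 42.6 to 178, 21.3 to 52.8 and 61.9 to 220 in Dp1Tyb cultures. Their log2 fold changes were -1.71, -1.79 and -1.56, with edgeR adjusted p-values of 0.403, 0.134 and 0.478. In bulk RNA, fewer cells of a type and less RNA per cell cannot be told apart. Results below are therefore also given without these 2 cultures, a choice made after seeing the data.

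Imprinted transcripts made up between 0.947% and 2.30% of all counts. The share was 2.30%, 1.06%, 1.22% and 1.45% in WT replicates 1 to 4. It was 1.57%, 0.947%, 1.35%, 1.37% and 1.43% in Dp1Tyb replicates 1 to 5. The ranges overlapped, and the highest and lowest shares were those of WT replicate 1 and Dp1Tyb replicate 2. *H19* alone, a maternally expressed non-coding RNA of the *Igf2* domain, took 0.748% of all counts in WT replicate 1 and 0.210% in Dp1Tyb replicate 2.

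Levels were compared between genes per length of exon, as RPKM. *H19* was highest, with a mean of 1476 RPKM over the 9 cultures and a range from 888 to 2867. *Igf2*, its paternally expressed neighbour, followed with 606 RPKM on average, between 419 and 925. Then came *Igf2r*, the receptor that takes up and clears IGF2, at 136 RPKM. *Gnas*, which codes for the stimulatory G protein alpha subunit and several other products, was at 110 RPKM, and *Grb10*, an adaptor that dampens insulin and IGF signalling, at 109 RPKM. Below these were the non-coding RNA *Meg3* at 67.1 RPKM, *Mest* at 66.4 RPKM and *Cdkn1c* at 53.9 RPKM. *Rian*, *Peg3*, *Impact*, *Ndn*, *Plagl1* and *Dlk1* had between 39.1 and 16.8 RPKM on average. The other 12 tested members were between 9.94 RPKM (*Slc38a4*, an amino acid transporter) and 0.0641 RPKM (*Kcnq1ot1*, an unspliced antisense RNA of 93092 bases). Of the 25 steps in this order, 4 separated genes whose ranges over the cultures did not overlap, *Igf2* over *Igf2r*, *Slc38a4* over *Sgce*, *Airn* over *Ppp1r9a* and *Ppp1r9a* over *Kcnq1ot1*. All other neighbours in the order overlapped.

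5 members had too few counts to be tested. *Usp29*, *Phlda2*, *Ascl2* and *Magel2* had at most 8.7 normalised counts in any culture. These genes are better known from brain or placenta. *Rtl1*, a paternally expressed gene of the *Dlk1* domain, had 67.9 normalised counts in WT replicate 1 and between 0 and 16.9 in the other 8 cultures.

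The comparison of Dp1Tyb with WT cultures asked whether imprinted genes outside the duplication differ with the genotype. Genes were tested with edgeR's quasi-likelihood test, two-sided, with Benjamini-Hochberg adjustment over all 14567 genes. No imprinted gene passed an adjusted p of 0.05 (0 of 26), beside 24 of 14567 genes, or 0.165%. An unadjusted p below 0.05 was reached by 0 of 26 members and by 456 genes, or 3.13%. With DESeq2 68 genes passed, again with 0 members, and *Igf2r* alone had an unadjusted p below 0.05. The edgeR adjusted p was 0.9997 for every tested member, and over the alternatives tried the smallest adjusted p of any member was between 0.406 and 1.0.

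Fold changes of the 26 members had a median of -0.07 on the log2 scale, between -1.55 (*Dlk1*) and 0.37 (*Nnat*). The median over all tested genes was 0.003. 16 members had a log2 fold change below 0, or 61.5%, against 49.0% of all tested genes. For the 15 paternally expressed members tested, the median was -0.07, and for the 9 maternally expressed members it was -0.10. *Gnas* and *Grb10*, whose parental copy depends on product and tissue, had log2 fold changes of 0.01 and 0.18. The sign of the median turned when WT replicate 1 was left out, to 0.10, and when only MEF2 cultures were compared, to 0.09. Without both WT replicate 1 and Dp1Tyb replicate 2 the median was 0.22 and again 0 members passed the adjusted threshold. 6 members then had an unadjusted p below 0.05 in edgeR, *Grb10*, *Igf2r*, *Meg3*, *Ndn*, *Plagl1* and *Zim1*, beside 1418 of 14603 genes. WT replicate 1 was the highest culture for 17 of the 26 members and Dp1Tyb replicate 2 the lowest for 13. Leaving them out raises the fold changes of those members and narrows their spread by construction. This does not cover *Igf2r*, highest in Dp1Tyb replicate 5 and lowest in WT replicate 2. Nor does it cover *Ndn*, highest in WT replicate 2 and lowest in WT replicate 1. The 2 cultures were left out after seeing the data, so these 6 p-values are not read as a test of the genotype.

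**Figure D1:**
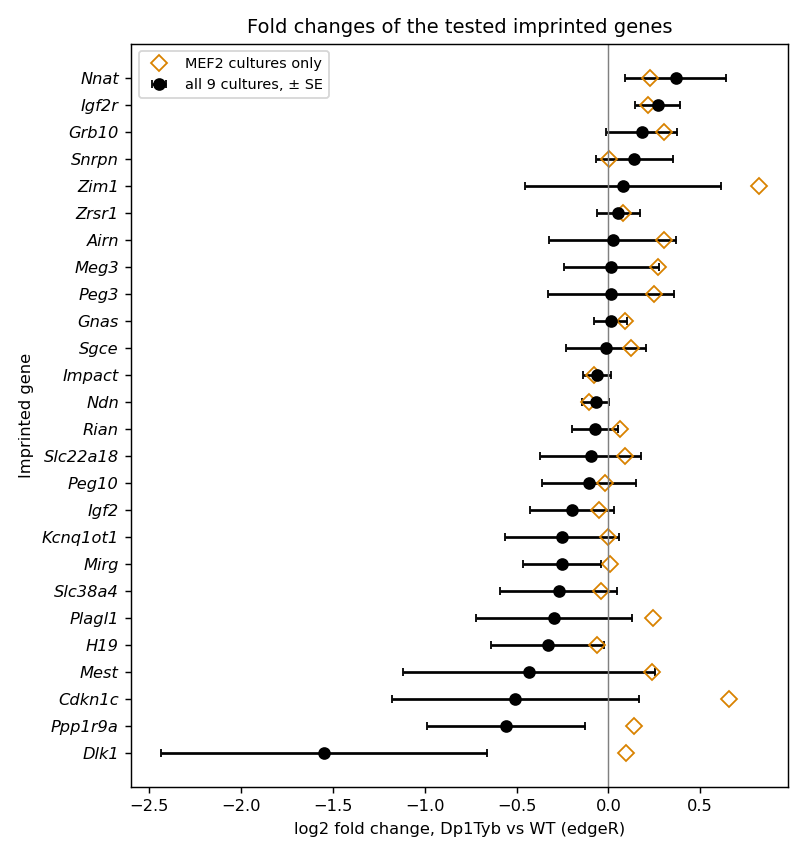
Log2 fold changes of the 26 tested imprinted genes, Dp1Tyb vs WT, from edgeR, ordered by size. Black points with bars are the estimates from all 9 cultures ± SE, and open diamonds are the estimates from the 3 WT and 4 Dp1Tyb MEF2 cultures. *Dlk1* is at -1.55 with all cultures and at 0.09 within MEF2.

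The member with the smallest p was *Igf2r*, a protein-coding gene on the minus strand of chromosome 17 from 12682406 to 12769664. Its normalised counts, scaled by TMM factors, were 28502, 28040, 29217 and 33732 in WT replicates 1 to 4. In Dp1Tyb replicates 1 to 5 they were 38859, 29747, 31642, 39585 and 39958. The 3 highest values were those of Dp1Tyb cultures, and WT replicate 4 lay above 2 of the 5 Dp1Tyb cultures, so the groups overlapped. The log2 fold change was 0.27 with an SE of 0.12, and the edgeR p was 0.0517 before and 0.9997 after adjustment. Within the MEF2 cultures it was 0.22, and between the single MEF1 cultures of each genotype the log2 difference was 0.45. Over all alternatives it stayed between 0.22 and 0.34. None of the 26 members had cultures that did not overlap between the genotypes (0 of 26), beside 1.36% of all tested genes. Without WT replicate 4, *Igf2r* was the one member without overlap, beside 4.08% of all genes. *Airn*, the paternally expressed antisense RNA that silences *Igf2r* on the paternal copy, had 121 to 334 normalised counts in WT and 134 to 265 in Dp1Tyb cultures, with a log2 fold change of 0.02 (SE 0.35).

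*Nnat*, a small membrane protein best known from brain, had the highest fold change. Its normalised counts were 94.4, 130, 113 and 164 in WT and 172, 233, 84.7, 176 and 141 in Dp1Tyb replicates. The lowest of all 9 values was in Dp1Tyb replicate 3, and 3 Dp1Tyb cultures were above all WT cultures. The log2 fold change was 0.37 (SE 0.28, edgeR adjusted p = 0.9997).

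*H19* and *Igf2* are neighbours on chromosome 7 and share enhancers, which act on *H19* on the maternal and on *Igf2* on the paternal copy. *H19* runs from 142575529 to 142578143 and *Igf2* from 142650766 to 142666816, both on the minus strand. Normalised counts of *H19* were 185862, 65743, 79670.0 and 100283 in WT replicates 1 to 4, and 115425, 57559, 91885, 75931 and 88523 in Dp1Tyb replicates 1 to 5. Those of *Igf2* were 139476, 73178, 78441 and 102484 in WT, and 101943, 63233, 69117, 89904 and 104127 in Dp1Tyb replicates. Both genes were highest in WT replicate 1 and lowest in Dp1Tyb replicate 2, and the other 7 cultures were mixed between the genotypes. The log2 fold changes were -0.33 (SE 0.31) for *H19* and -0.20 (SE 0.23) for *Igf2*, and -0.06 and -0.05 within the MEF2 cultures. The ratio of the normalised counts moved less than either gene. Its log2 value stayed between -0.24 and 0.41, a range of 0.66, while *H19* had a range of 1.69 and *Igf2* one of 1.14. Exons of *H19* and *Igf2* overlap short genes on the other strand. Whether the counting used strand is not given in the sources used here, so a small part of these counts is uncertain, as it is for *Mest* (overlapped by *Copg2*), *Gnas* (by *Nespas*), *Zrsr1* (by *Commd1*) and *Snrpn*, which shares exons with a gene on its own strand.

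The *Dlk1*-*Meg3* domain on chromosome 12 was the most uneven. It holds *Dlk1* from 109452823 to 109463336 and, on the same strand, *Meg3* from 109541001 to 109571726, *Rian* and *Mirg*, while *Rtl1* is read from the other strand. *Dlk1*, a paternally expressed membrane protein that holds back the differentiation of preadipocytes, had 12781 normalised counts in WT replicate 1 and 749, 1018 and 1235 in WT replicates 2 to 4. In Dp1Tyb replicates 1 to 5 it had 2470, 468, 2208, 851 and 746. A single WT culture thus lay far above all others, and the remaining WT cultures lay within the range of the Dp1Tyb cultures. The log2 fold change of -1.55 had an SE of 0.89 (edgeR adjusted p = 0.9997), and without WT replicate 1 it was 0.44, on the other side of 0. *Rtl1*, on the same parental copy, was also highest in WT replicate 1. The maternally expressed non-coding RNAs of the domain varied far less. *Meg3* had 44414, 24029, 30562 and 28243 normalised counts in WT and 27782, 18253, 36800, 44449 and 33405 in Dp1Tyb replicates, with the 2 highest values in 1 culture of each genotype. *Rian* was between 16439 and 25056 and *Mirg* between 409 and 974. The log2 ratio of *Meg3* to *Dlk1* ran from 1.80 in WT replicate 1 to 5.71 in Dp1Tyb replicate 4.

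In the *Peg3* domain on chromosome 7, *Peg3* codes for a paternally expressed zinc finger protein and *Zim1* for a maternally expressed one. *Peg3* had 16727, 6327, 9199 and 12934 normalised counts in WT and 11918, 4808, 12961, 14451 and 12915 in Dp1Tyb replicates. Dp1Tyb replicate 2 was below every other culture, and the other 4 Dp1Tyb cultures lay within the WT range. *Zim1* had 971, 168, 249 and 400 normalised counts in WT and 449, 150, 532, 683 and 556 in Dp1Tyb replicates, so that 4 Dp1Tyb cultures lay above 3 of the 4 WT cultures. Its log2 fold change was 0.08 (SE 0.53) over all cultures and 0.82 within MEF2, where the edgeR adjusted p was 0.9998. The log2 ratio of *Zim1* to *Peg3* stayed between -5.23 and -4.11.

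*Cdkn1c* codes for the cyclin-dependent kinase inhibitor p57, a brake on proliferation, and is maternally expressed from the *Kcnq1* domain, on the minus strand of chromosome 7 from 143458339 to 143461050. Its normalised counts were 9082, 857, 1667 and 2265 in WT replicates 1 to 4 and 2159, 762, 4673, 2132 and 2480 in Dp1Tyb replicates 1 to 5. WT replicate 1 was highest, Dp1Tyb replicate 3 next, and the lowest value of each genotype was in its replicate 2. The log2 fold change of -0.51 had an SE of 0.67 (edgeR adjusted p = 0.9997) and was 0.65 within MEF2. *Kcnq1ot1*, the paternal antisense RNA of the domain, had between 93.0 and 284 normalised counts, and *Slc22a18*, a maternally expressed transporter, between 62.6 and 179. Neither moved with the genotype beyond its error, with log2 fold changes of -0.25 (SE 0.31) and -0.10 (SE 0.28).

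*Mest*, also called Peg1, codes for a paternally expressed hydrolase-like protein of mesoderm and lies on chromosome 6 from 30723547 to 30748465. Its normalised counts were 18076, 2835, 5709 and 5654 in WT and 7604, 673, 10212, 6158 and 5239 in Dp1Tyb replicates. Dp1Tyb replicate 2 was far below the next lowest culture, WT replicate 2, and WT replicate 1 was the highest. The log2 fold change was -0.43 (SE 0.69, edgeR adjusted p = 0.9997). *Plagl1*, which codes for the paternally expressed zinc finger factor ZAC1, had 10436, 2962, 2637 and 3509 normalised counts in WT and 5545, 2262, 4752, 4102 and 3227 in Dp1Tyb replicates. WT replicate 1 was again apart, and 3 Dp1Tyb cultures lay above the other 3 WT cultures. The log2 fold change was -0.30 (SE 0.42, edgeR adjusted p = 0.9997). *Ppp1r9a*, a maternally expressed actin-binding scaffold protein of the *Peg10* domain, was low, with 229, 49.6, 77.2 and 87.9 normalised counts in WT and 62.5, 45.3, 113, 74.7 and 82.2 in Dp1Tyb replicates. Its log2 fold change of -0.56 had an SE of 0.43 (edgeR adjusted p = 0.9997) and was 0.14 within MEF2.

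**Figure D2:**
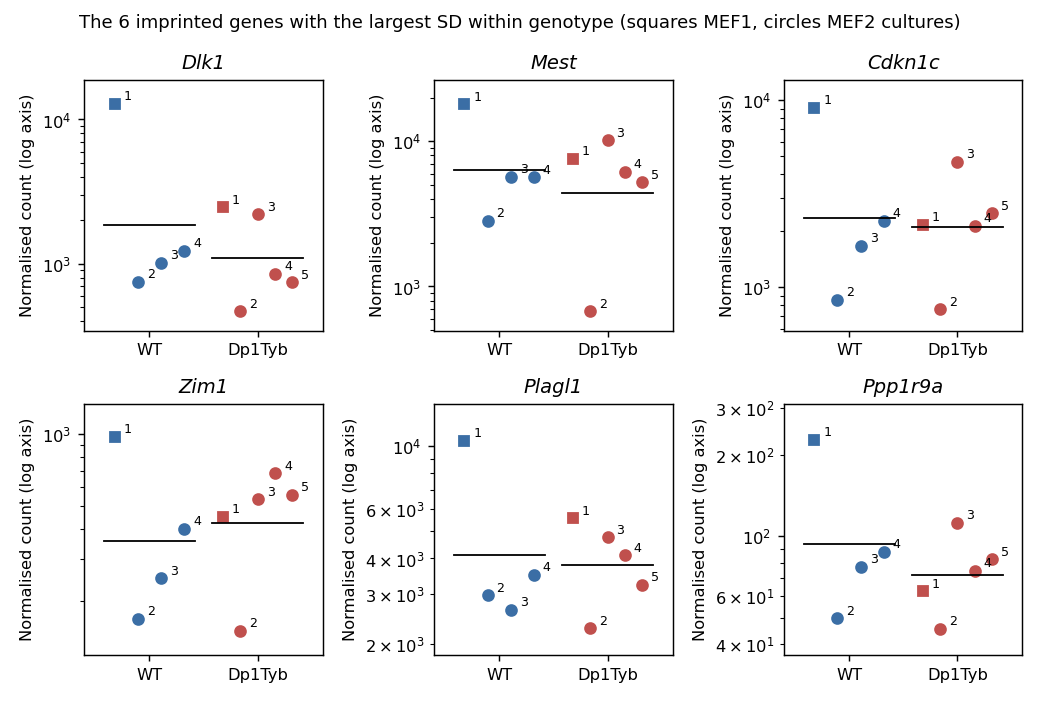
Normalised counts, on log axes, of the 6 imprinted genes with the largest SD within genotype, in the 4 WT (blue) and 5 Dp1Tyb (red) cultures, each point labelled with its replicate number. Squares are MEF1 and circles MEF2 cultures, and lines are geometric means. WT replicate 1 is the highest and Dp1Tyb replicate 2 the lowest culture in all 6 panels.

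*Peg10*, a gene derived from a retrotransposon, and *Sgce*, which codes for epsilon-sarcoglycan, are both paternally expressed and start next to each other on chromosome 6, at 4747306 and 4747207, on opposite strands. *Peg10* had 662, 408, 436 and 385 normalised counts in WT and 579, 620, 290.0, 359 and 351 in Dp1Tyb replicates. *Sgce* had 1479, 891, 1197 and 1431 in WT and 1082, 748, 1492, 1413 and 1446 in Dp1Tyb replicates. In Dp1Tyb replicate 2 *Sgce* was at its lowest and *Peg10* at its second highest, and in Dp1Tyb replicate 3 *Sgce* was at its highest and *Peg10* at its lowest. Their log2 fold changes were -0.10 (SE 0.26) and -0.02 (SE 0.22).

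The other tested members were steadier than *Dlk1* and *Mest*. *Grb10* was between 17771 and 31432 normalised counts and *Slc38a4* between 742 and 2152. *Snrpn*, which codes for a splicing protein, was between 95.2 and 204 normalised counts. *Ndn*, a paternally expressed inhibitor of cell growth, was between 2586 and 3103, *Gnas* between 29077 and 35830, *Impact*, a regulator of translation, between 3785 and 4526, and *Zrsr1*, a splicing factor, between 318 and 423. Log2 fold changes of these genes were between -0.27 (*Slc38a4*, SE 0.32) and 0.18 (*Grb10*, SE 0.20).

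**Figure D3:**
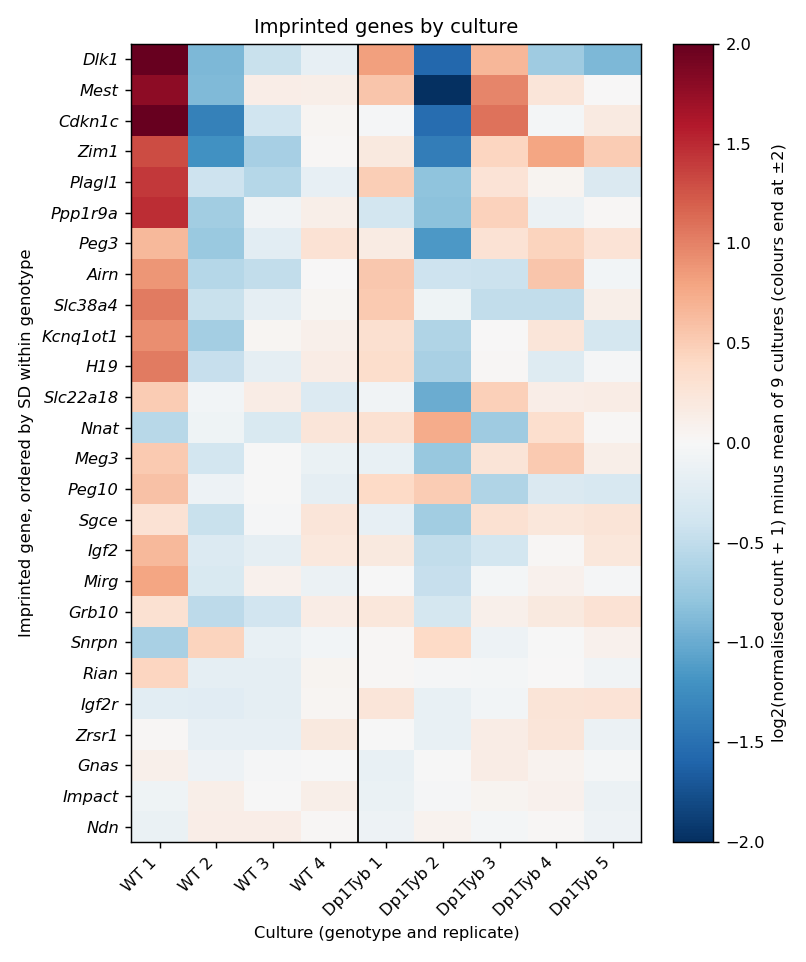
Each row is one of the 26 tested imprinted genes and each column one of the 9 cultures, with 4 WT to the left of the line and 5 Dp1Tyb to the right. Colour is the log2(normalised count + 1) minus the gene's mean over the 9 cultures, and rows are ordered from the largest to the smallest SD within genotype. The column of WT replicate 1 is mostly red (median 0.62) and that of Dp1Tyb replicate 2 mostly blue (median -0.48).

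The spread between cultures of one genotype was measured as the SD of log2(normalised count + 1) about the genotype means. It was 1.46 for *Dlk1*, 1.38 for *Mest*, 1.18 for *Cdkn1c*, 0.96 for *Zim1*, 0.71 for *Plagl1* and 0.70 for *Ppp1r9a*. These 6 of the 26 members, or 23.1%, lay above 0.67, the 90th percentile of the tested genes, which by construction 10.0% of all genes exceed. The median SD of the members was 0.45, against 0.22 for all tested genes. *Dlk1* was more variable than 98.6% of tested genes, *Mest* than 98.4% and *Cdkn1c* than 97.6%. The edgeR dispersion of these 3 genes was 23.5, 12.6 and 14.4 times that of genes of like abundance. At the other end, *Ndn*, *Impact* and *Gnas* each had an SD of 0.10, at percentiles of 11.3, 11.7 and 13.1 of the tested genes.

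The range over the cultures shows the same order. The highest normalised count was 27.3 times the lowest for *Dlk1*, 26.9 times for *Mest* and 11.9 times for *Cdkn1c*, but 1.20 times for *Ndn* and *Impact* and 1.23 times for *Gnas*. Within the 7 MEF2 cultures it was 4.72 times for *Dlk1*, 15.2 times for *Mest* and 6.14 times for *Cdkn1c*. Without WT replicate 1 the SD fell to 0.88 for *Dlk1* and 0.87 for *Cdkn1c* and was 1.32 for *Mest*. With Dp1Tyb replicate 2 left out as well, *Mest* came down to 0.49. The 90th percentile of all genes was then taken anew over the cultures kept, so the limit of 0.67 does not apply. Only 2 of the 26 members stayed above it, *Dlk1* (0.74) and *Cdkn1c* (0.61). Taking out cultures that hold a gene's highest and lowest values lowers its SD by construction.

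**Figure D4:**
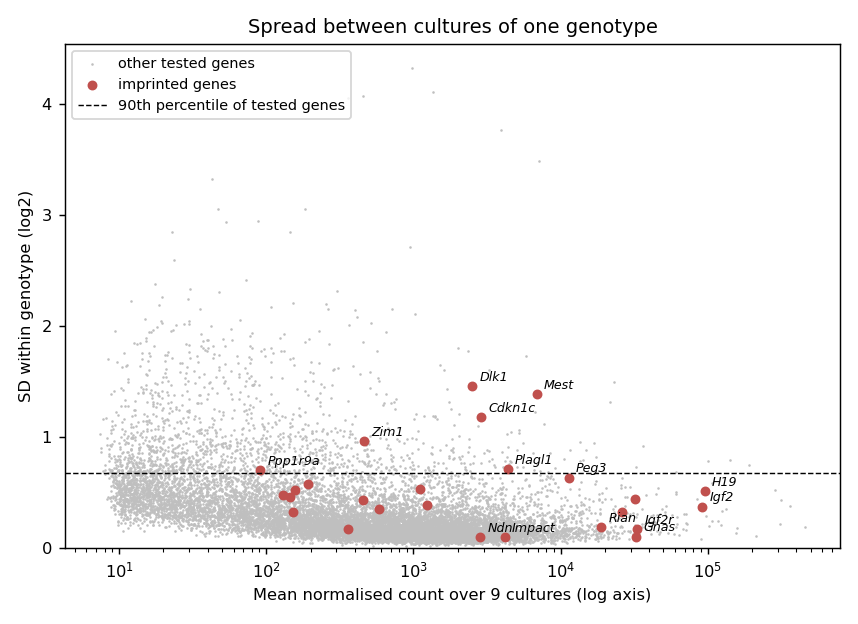
SD of log2(normalised count + 1) within genotype against mean normalised count (log axis) for all 14567 tested genes, with the 26 imprinted genes in red and named where the SD is above 0.6 or where they are discussed. The dashed line at 0.67 is the 90th percentile of tested genes, and *Dlk1*, *Mest*, *Cdkn1c*, *Zim1*, *Plagl1* and *Ppp1r9a* lie above it.

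WT replicate 1 held the highest value of the 9 cultures for 17 of 26 members, or 65.4%, beside 24.9% of all tested genes. Dp1Tyb replicate 2 held the lowest for 13 of 26, or 50.0%, beside 27.0% of all tested genes. The members' values in WT replicate 1 were a median of 0.62 above their means on the log2 scale, and those in Dp1Tyb replicate 2 a median of 0.48 below, with medians over all tested genes of 0.02 and -0.007. Of the 17 genes, 9 of the 15 tested paternally expressed members and 7 of the 9 maternally expressed ones were highest there, and *Grb10* was the other. Members that went the other way were few. *Ndn* and *Snrpn* were lowest in WT replicate 1, with 2586 and 95.2 normalised counts, and *Nnat* was highest in Dp1Tyb replicate 2. The same cultures differ in markers, as given above, with the lowest fibroblast and highest muscle sum in Dp1Tyb replicate 2 and the lowest muscle sum in WT replicate 1, whose fibroblast sum was within the range of the others. The summed level of proliferation markers did not set them apart. For 5 cell cycle genes, all of which passed the filter, it was 42.6 RPKM in WT replicate 1. It was 36.4 RPKM in Dp1Tyb replicate 2 and 27.0 to 44.3 in the others. Of the 5, only *Mki67* was highest in WT replicate 1 (2981 normalised counts, at most 2690 elsewhere), and 0 were lowest in Dp1Tyb replicate 2. All 5 had a log2 fold change below 0 (median -0.23), and 0 passed the adjusted threshold. Whether cell makeup had a part in the levels of the imprinted genes was not tested.

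The promoters of *Mest* and *Dlk1*, the most variable members, are shown with that of *Plagl1*, which also varied, and that of *Meg3*, the steadier maternal partner of *Dlk1*. Each is 250 bases before to 50 bases after a transcription start in RefSeq (GRCm38.p6), on the plus strand. Capitals mark matches to TGCCGC, the core of the sequence that the imprint-maintaining protein ZFP57 binds when methylated, searched on both strands. In these promoters all matches are on the minus strand and read GCGGCA.
Mest, chr6:30737800-30738099: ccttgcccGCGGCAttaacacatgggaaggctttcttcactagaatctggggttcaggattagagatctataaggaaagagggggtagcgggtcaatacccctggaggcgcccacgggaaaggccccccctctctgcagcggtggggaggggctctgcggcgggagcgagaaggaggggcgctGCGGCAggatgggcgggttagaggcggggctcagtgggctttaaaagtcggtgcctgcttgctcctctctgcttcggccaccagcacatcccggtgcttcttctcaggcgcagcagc
Plagl1, chr10:13090582-13090881: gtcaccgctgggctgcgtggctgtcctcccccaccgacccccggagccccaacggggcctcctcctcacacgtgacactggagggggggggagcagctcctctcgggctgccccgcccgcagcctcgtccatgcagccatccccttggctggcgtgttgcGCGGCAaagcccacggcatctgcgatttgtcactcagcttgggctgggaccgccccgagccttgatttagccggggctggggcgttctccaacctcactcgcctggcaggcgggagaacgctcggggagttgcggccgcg
Meg3, chr12:109540746-109541045: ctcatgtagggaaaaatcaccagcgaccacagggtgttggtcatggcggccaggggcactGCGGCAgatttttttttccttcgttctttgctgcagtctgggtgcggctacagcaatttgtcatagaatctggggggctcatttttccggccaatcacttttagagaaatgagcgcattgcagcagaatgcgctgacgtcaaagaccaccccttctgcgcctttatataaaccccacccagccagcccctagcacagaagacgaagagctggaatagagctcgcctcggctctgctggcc
Dlk1, chr12:109452573-109452872: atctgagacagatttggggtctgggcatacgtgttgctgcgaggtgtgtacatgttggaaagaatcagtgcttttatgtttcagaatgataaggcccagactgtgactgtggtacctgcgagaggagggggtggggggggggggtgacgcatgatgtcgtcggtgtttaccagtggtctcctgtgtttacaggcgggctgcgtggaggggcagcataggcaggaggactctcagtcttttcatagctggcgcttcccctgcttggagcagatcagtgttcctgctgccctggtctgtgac
The *Mest* promoter shown holds 2 matches and 17 CpG dinucleotides, *Plagl1* 1 match and 26 CpG, *Meg3* 1 match and 13 CpG, and *Dlk1* 0 matches and 9 CpG. *Mest* has 3 promoters in RefSeq, of which 2 start 3 bases apart and hold the same matches, and the third, chr6:30733256-30733555, holds 0 matches and 8 CpG. *Meg3* has a second one, chr12:109545148-109545447, with 0 matches and 1 CpG. RefSeq promoters were found for 25 of the members, 41 promoters in all. Of these 9, or 22.0%, held a match, beside 11.6% of the 32851 promoters of all genes. The 2 overlapping *Mest* promoters are both among the 9. TGCCGC itself holds a CpG, and the median promoter held 10 CpG for the members and 7 for all genes, so the shares are not from like sets. A match is only these letters in this window and does not show binding or methylation, which were not measured.

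Next, pairs of imprinted genes that share a domain or, as with PLAGL1 and its targets, are known to be linked by regulation were compared across the 9 cultures. 12 pairs were set and 9 had both genes tested. Correlations are of log2(normalised count + 1), with exact two-sided permutation p-values adjusted over the 9 pairs. *Plagl1* and *H19* had a Pearson r of 0.92 (exact permutation p = 0.00118, adjusted 0.00767) and a Spearman rho of 0.83 (exact permutation p = 0.00827). *Plagl1* and *Cdkn1c* had r = 0.87 (exact permutation p = 0.00229, adjusted 0.00767) and rho = 0.78 (exact permutation p = 0.0172). *H19* and *Igf2* had r = 0.87 (exact permutation p = 0.00256, adjusted 0.00767) and rho = 0.72 (exact permutation p = 0.0369). *Plagl1* and *Igf2* had r = 0.74 (exact permutation p = 0.0197, adjusted 0.0443) and rho = 0.55 (exact permutation p = 0.133). The other 5 pairs did not pass, including *Dlk1* and *Meg3* (r = 0.59) and *Peg10* and *Sgce*, which share a promoter region (r = -0.48). With deviations from the genotype means in place of values, 6 pairs passed, with *Rian* and *Mirg* (r = 0.77) and *Ndn* and *Snrpn* (r = 0.75) added.

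Whether these pairs passed depended on which cultures were kept. Without WT replicate 1 alone, r was 0.786 for *Plagl1* and *H19*, 0.735 for *H19* and *Igf2*, 0.725 for *Plagl1* and *Cdkn1c* and 0.457 for *Plagl1* and *Igf2*. With fewer cultures, the same r also gives a larger p. Leaving out the 2 cultures farthest from the median of the first gene gave r = 0.66 for *Plagl1* and *H19* (exact permutation p = 0.109), 0.58 for *H19* and *Igf2* (exact permutation p = 0.176) and 0.29 for *Plagl1* and *Igf2* (exact permutation p = 0.518). WT replicate 1 was one of the 2 in each case, and for the *Plagl1* pairs the other was Dp1Tyb replicate 1, so that the cultures left were the 7 of MEF2. These relations no longer held at 0.05 without them. For *Plagl1* and *Cdkn1c* the value was 0.85 (exact permutation p = 0.02). For the *Plagl1* pairs the values within MEF2 are therefore the same and no separate check. For *H19* and *Igf2* r was 0.68 within MEF2 (exact permutation p = 0.1). No pair passed there after adjustment over the pairs. In MEF2 the smallest adjusted p was that of *Peg10* and *Sgce*, with r = -0.86 (exact permutation p = 0.00774, adjusted 0.0696). The MEF1 set holds 1 culture of each genotype and gives no correlation.

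**Figure D5:**
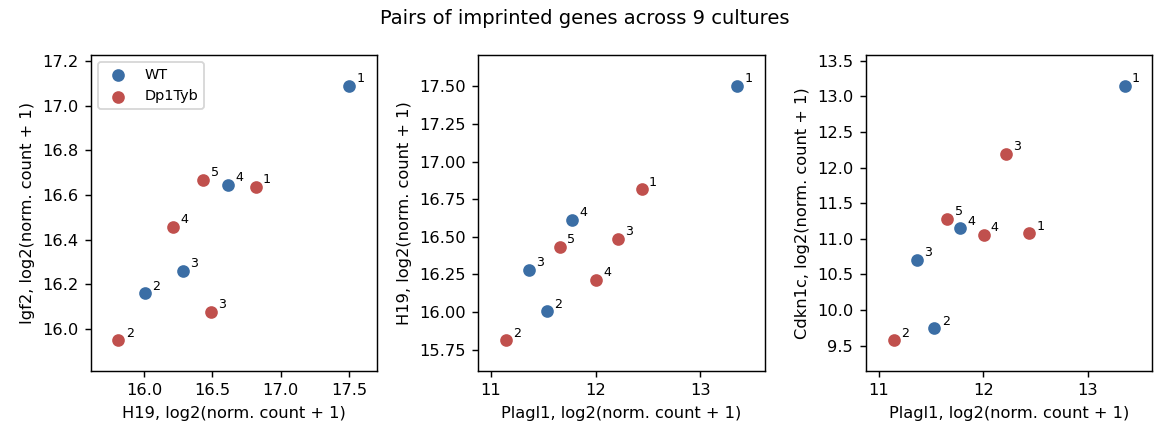
Log2(normalised count + 1) of *H19* and *Igf2*, *Plagl1* and *H19*, and *Plagl1* and *Cdkn1c* in the 9 cultures, WT in blue and Dp1Tyb in red, labelled with replicate numbers. WT replicate 1 is at the top right and Dp1Tyb replicate 2 at the bottom left of each panel.

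Over all 325 pairs of tested members, 18.2% had an r above 0.8 across the 9 cultures, beside 3.83% of all pairs of tested genes. This is a description, since the pairs share the same 9 libraries. Without WT replicate 1 the shares were 9.85% and 4.11%, and with Dp1Tyb replicate 2 left out too they were 5.23% and 2.97%.

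The wider set of genes was read in the same fit. Of 45 other imprinted genes, 33 were tested and 0 passed, with a median log2 fold change of 0.03. *Pon3*, a maternally expressed paraoxonase of the *Peg10* domain, had an unadjusted p of 0.0392 in edgeR (log2 fold change 0.24, SE 0.10, adjusted p = 0.9997). 4 of the 33 had an SD within genotype above the 90th percentile, which 10.0% of all tested genes exceed. WT replicate 1 held the highest value for 8 of the 33 and Dp1Tyb replicate 2 the lowest for 9. These are near the shares of all tested genes, 24.9% and 27.0%, unlike those of the 26 members. Of 18 tested genes that set or keep imprints, such as *Dnmt1* and *Zfp57*, 0 passed, 15 had a log2 fold change below 0 and 3 above, beside 49.0% of all tested genes below 0, and the median was -0.06. WT replicate 1 held the highest value for 13 of the 18 and Dp1Tyb replicate 2 the lowest for 7. *Trim28*, the corepressor that ZFP57 recruits, was among the steadiest, between 5375 and 5957 normalised counts. *Dnmt3a*, a DNA methyltransferase, had 2798 normalised counts in WT replicate 1, 746 in Dp1Tyb replicate 2 and 1095 to 1844 in the others. *Tet1*, which oxidises methylated cytosine, had 311 normalised counts in WT replicate 1, 43.2 in Dp1Tyb replicate 2 and 68.2 to 195 in the others.

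Of 18 tested genes of insulin-like growth factor signalling, in which *Igf2*, *Igf2r* and *Grb10* act, 0 passed, and the median log2 fold change was 0.02. 5 of the 18 lay above the 90th percentile of SD, which 10.0% of all tested genes exceed. They were *Igf1* and the binding proteins *Igfbp2*, *Igfbp3*, *Igfbp4* and *Igfbp5*. WT replicate 1 held the highest value for 5 of the 18 and Dp1Tyb replicate 2 the lowest for 6. These are near the shares of all tested genes, 24.9% and 27.0%. *Igf1*, the other IGF ligand, had 4090 normalised counts in WT replicate 1, 334 in Dp1Tyb replicate 2 and 577 to 3516 in the others. *Igfbp5*, which binds IGFs outside the cell, had 81913, 8242 and 19502 to 47758. Other genes of the list went the other way. The binding protein *Igfbp7* had 3565 normalised counts in WT replicate 1, 13399 in Dp1Tyb replicate 2 and 7224 to 8858 in the others. The receptor *Igf1r* had 1391 normalised counts in WT replicate 1, 2009 in Dp1Tyb replicate 2 and 1406 to 1945 in the others.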

How the data were processed

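RNA from 4 WT and 5 Dp1Tyb MEF cultures was sequenced in read pairs from a stranded poly(A) library. The authors trimmed the reads with Trim Galore, mapped them to GRCm38 with TopHat2 2.0.12, kept reads with a single alignment and counted these per gene with HTSeq. The annotation release and strand option are not given in the sources used here. Only the deposited counts without normalisation were used. The deposited normalised counts, a signal of counts over a size factor, were not used, nor was the authors' DESeq2 table, which holds their mean signal, log2 fold change, score, p-value and adjusted p-value. Of 43629 listed genes, 42462 matched GENCODE M21, which gave symbols, positions and exon lengths.

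Counts were tested with edgeR 4.0.16 in R 4.3.3 (filterByExpr, TMM, quasi-likelihood test, two-sided, no covariate), with Benjamini-Hochberg adjustment over 14567 genes. Normalised counts are TMM-scaled to the mean library. Logs use a pseudocount of 1. RPKM uses the summed length of all exons and the TMM-scaled library size. Correlations used all pairings of the 9 cultures. p-values measure the spread between cultures, each from one embryo. The scripts were tested on simulated data. The members and lists were chosen with earlier results of these data known. Named with all values were members with an unadjusted p below 0.05, the 5 largest fold changes, the 6 largest SDs and both genes of pairs that passed. *Igf2r*, *Meg3*, *Peg3*, *Peg10*, *Sgce*, the markers named and the named genes of the imprint-keeping and IGF lists were added after their values were seen. Alternatives were DESeq2 1.42.0, other scaling, other filters, deviations from genotype means, culture series, replicate block and each culture left out. The erythroid markers, of which 0 passed the filter, are not reported here, and the Schwann cell and neural crest list is reported only in part.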

Additional observations from a re-analysis of the deposited data

Results flagged for a closer look

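In 52 groups (26 genes in each genotype), 4 held a culture farther from the rest than Dixon's 95% limit allows, and chance alone flags about 1 in 20 groups. *Dlk1* had 12780.8 normalised counts in WT replicate 1 and 749 to 1235 in the other WT cultures. *Plagl1* had 10436.4 in the same culture and 2637 to 3509 in the other WT cultures. *Peg3* had 4808.3 in Dp1Tyb replicate 2 and 11918 to 14451 in the other Dp1Tyb cultures. *Mirg* had 408.9 in Dp1Tyb replicate 2 and 548 to 599 in the other Dp1Tyb cultures. The 4 values came from the 2 cultures that also stood apart across all genes and held the lowest and the highest summed level of skeletal muscle markers. The summed fibroblast level was lowest in Dp1Tyb replicate 2, while that of WT replicate 1 lay within the range of the other 7 cultures. Whether those differences had a part in these values was not tested.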

How the results depend on the processing

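No imprinted gene was called under any alternative tried. The count over all genes was 24 and moved to 68 with DESeq2, 85 with DESeq2 and a replicate block, 0 with the replicate block in edgeR (802 genes at an unadjusted p below 0.05), 1 within MEF2 and 40 without WT replicate 1 and Dp1Tyb replicate 2. With one culture left out it was between 2 and 26. The replicate numbers were not taken as pairing the cultures, since deviations of same-numbered cultures correlated at 0.25, 0.73, 0.03 and 0.38, and the best partner of WT replicates 1, 3 and 4 was another number. The block turned *Meg3* to -0.0383 and *Peg3* to -0.0578 on the log2 scale (-0.030 and -0.0497 in DESeq2).

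Of 26 members, 5 kept the sign of their fold change under every alternative (*Igf2r*, *Grb10*, *Nnat*, *Ndn* and *Impact*) and 21 did not. With culture series as a covariate *Cdkn1c* was at 0.0915. Within MEF2, log2 fold changes turned to 0.0651 for *Rian*, 0.0077 for *Mirg*, 0.0946 for *Dlk1*, 0.24 for *Mest*, 0.24 for *Plagl1*, 0.65 for *Cdkn1c*, 0.0874 for *Slc22a18*, 0.12 for *Sgce* and 0.14 for *Ppp1r9a*. Within MEF2 0 of 9 pairs passed after adjustment over the pairs with 7 cultures, and *Rian* and *Mirg* had r = -0.0216. Without both WT replicate 1 and Dp1Tyb replicate 2, they turned to 0.19 for *H19*, 0.11 for *Igf2*, 0.0788 for *Rian*, 0.11 for *Mirg*, 0.65 for *Dlk1*, 0.63 for *Mest*, 0.54 for *Plagl1*, 0.84 for *Cdkn1c*, 0.24 for *Slc22a18*, 0.22 for *Kcnq1ot1*, -0.10 for *Snrpn*, 0.21 for *Sgce*, 0.22 for *Ppp1r9a* and 0.16 for *Slc38a4*, and 2 members were above the 90th percentile of SD, against 6.

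Leaving out each culture in turn, log2 fold changes ranged from -0.51 to 0.0712 for *H19*, -0.32 to 0.0189 for *Igf2*, -0.14 to 0.0775 for *Rian*, -0.39 to 0.0273 for *Mirg*, -1.89 to 0.44 for *Dlk1*, -0.72 to 0.34 for *Mest*, -0.50 to 0.39 for *Plagl1*, -0.88 to 0.62 for *Cdkn1c*, -0.24 to 0.0738 for *Slc22a18*, -0.46 to 0.10 for *Kcnq1ot1*, -0.0134 to 0.35 for *Snrpn*, -0.26 to 0.10 for *Peg10*, -0.15 to 0.12 for *Sgce*, -0.80 to 0.0795 for *Ppp1r9a*, -0.44 to 0.15 for *Slc38a4*, -0.14 to 0.44 for *Airn*, -0.13 to 0.22 for *Meg3*, -0.18 to 0.27 for *Peg3*, -0.19 to 0.80 for *Zim1*, -0.0258 to 0.0547 for *Gnas* and -0.0033 to 0.14 for *Zrsr1*. WT replicate 1 gave one end of the range for most of them. Members without overlap between the genotypes numbered 0 to 1 and correlated pairs 0 to 5, with 0 when WT replicate 1 was left out. With deviations from the genotype means in place of values, 6 pairs passed, the added ones being *Rian* and *Mirg* (r = 0.77) and *Ndn* and *Snrpn* (r = 0.75). Apart from what these alternatives show by their own construction, the cause was not tested. Members with under about 10 counts could not be tested at this depth.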
